A study of Mus musculus with 8 samples.

Results

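A set of 10 genes of mitochondrial fusion, fission and biogenesis was measured in heart tissue of db/db mice, a strain whose leptin receptor is defective and that develops obesity and diabetes. They were chosen by symbol, as the 10 rows of the deposited count table, out of 55487 genes, that hold Mfn1, Mfn2, Opa1, Dnm1l, Fis1, Mff, Tfam, Polg, Nrf1 and Tfb2m. All 10 were among the 13648 genes with enough reads to be tested. The study holds 4 heart libraries of db/db mice given DIZE, read here as the compound diminazene aceturate (the series title speaks of pharmacologic activation of angiotensin-converting enzyme 2), and 4 heart libraries of db/db mice given vehicle. Both groups carry the db/db genotype, and no library of a mouse without diabetes was analysed here. Age, sex, dose and duration are not given in the labels, nor whether each library came from its own animal, so every p-value below rests on the spread among these samples alone, and that spread may be technical.

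Mitochondria in heart muscle are remodelled by membrane fusion and division. The GTPases mitofusin 1 and mitofusin 2, encoded by Mfn1 and Mfn2, join the outer membranes, and OPA1 joins the inner membranes and holds the cristae in shape. Division is carried out by DRP1, the product of Dnm1l, a cytosolic GTPase recruited to the outer membrane by adaptors such as MFF, while FIS1 is an outer membrane protein also linked to division. New mitochondria need copies of mitochondrial DNA and its transcripts. TFAM packages that DNA and starts its transcription together with TFB2M, POLG is the catalytic subunit of the polymerase that copies it, and nuclear respiratory factor 1, encoded by Nrf1, is a nuclear transcription factor of many mitochondrial genes.

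The bases upstream of the annotated start sites are shown because the factors of mitochondrial biogenesis are known for particular promoter motifs. The stretches are from RefSeq on GRCm38.p6, the assembly of mm10, written 5′ to 3′ on the strand of the gene and ending at the base before the start site nearest to the annotated gene start. Capitals mark matches to GCGCA, any base and GCGC (NRF1), CCGGAAG (GABP, also called NRF-2) or GGGCGG (SP1) on either strand. The mitofusin stretches are given at full length because both genes lay higher in every DIZE library.
Mfn1 (chr3:32529232-32529481, plus strand): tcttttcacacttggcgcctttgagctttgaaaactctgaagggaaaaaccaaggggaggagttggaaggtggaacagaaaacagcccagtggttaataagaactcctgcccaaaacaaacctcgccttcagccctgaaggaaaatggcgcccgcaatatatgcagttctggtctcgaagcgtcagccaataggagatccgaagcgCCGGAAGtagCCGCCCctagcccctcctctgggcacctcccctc
Mfn2 (chr4:147904699-147904948, minus strand): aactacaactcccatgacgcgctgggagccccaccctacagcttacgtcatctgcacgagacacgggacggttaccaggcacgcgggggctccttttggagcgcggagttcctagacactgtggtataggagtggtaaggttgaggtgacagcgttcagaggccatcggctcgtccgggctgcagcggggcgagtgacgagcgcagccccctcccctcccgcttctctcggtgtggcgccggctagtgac
The next stretches hold the NRF1 match of Opa1 and the GABP matches of Fis1, Tfam and Polg.
Opa1 (chr16:29579234-29579333, plus strand): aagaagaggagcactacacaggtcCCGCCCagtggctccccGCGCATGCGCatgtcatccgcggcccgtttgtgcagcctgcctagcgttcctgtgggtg
Fis1 (chr5:136953175-136953274, plus strand): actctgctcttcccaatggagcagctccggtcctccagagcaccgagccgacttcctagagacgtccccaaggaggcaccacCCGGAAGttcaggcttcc
Tfam (chr10:71238045-71238144, minus strand): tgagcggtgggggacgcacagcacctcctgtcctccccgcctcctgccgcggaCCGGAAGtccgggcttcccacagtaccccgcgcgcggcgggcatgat
Polg (chr7:79466274-79466373, minus strand): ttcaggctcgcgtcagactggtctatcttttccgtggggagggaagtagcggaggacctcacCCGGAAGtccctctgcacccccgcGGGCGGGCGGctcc
Over windows from 250 bases before to 50 bases after each annotated start, which matched all 10 genes, CCGGAAG was found in 5 of the 10, namely Mfn1, Dnm1l, Fis1, Tfam and Polg, and in 9.93% of the 27025 genes in the RefSeq table. Its match began at position -44 from the start site in Mfn1, -47 in Tfam, -38 in Polg and -18 in Fis1. Fis1 had another match at position 19 after its other annotated start, and the match of Dnm1l lay at position 12 after the start, on the opposite strand. The NRF1 motif was found in Opa1 alone among the 10, as GCGCATGCGC at position -59, and in 5.19% of all genes. GGGCGG was found in all 10 and in 38.2% of all genes, counting every annotated start of a gene. AAGGTCA, the core of the motif of the estrogen-related receptors (ERR), was found in none of the 10 and in 5.38% of all genes. The stretch shown for Mfn2 held no match to the marked motifs, and its GGGCGG match lay in the window of another annotated start. The windows of the 10 genes held 46.3% to 77% GC and 2 to 43 CG pairs. Most lay above the medians of all windows, 52.7% GC and 7 CG pairs. How far the shares of the GC-rich motifs follow from base composition was not tested. These are matches of letters and not measured binding sites.

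Total counts ranged from 8042396 to 10161623 in the DIZE libraries and from 7447664 to 10056759 in the vehicle libraries. The 12 cardiomyocyte markers examined, such as the alpha myosin heavy chain gene Myh6, were all detected, and their summed level ranged from 51412 to 58400 CPM in DIZE libraries and from 35788 to 57510 CPM in vehicle libraries. CPM are counts scaled to a common depth over tested genes, with TMM factors. Vehicle 1 had the lowest level of 7 of these 12 markers, while vehicle 4 was lowest for 4 and vehicle 3 for 1. Mb, Myl2, Myl3, Tnni3 and Pln were not lowest in vehicle 1. Mb had 2436 CPM there, against a vehicle mean of 2441 CPM. Vehicle 1 also stood apart with the highest sum of 5 atrial markers (822 CPM, where DIZE libraries ranged from 31.6 to 148 CPM). Of these, Myl7 had at most 42.1 CPM in DIZE libraries, against 278.5 CPM in vehicle 1, 107.8 CPM in vehicle 4 and at most 21.8 CPM in the other vehicle libraries. Vehicle 2 held 1348 CPM of the liver transcript Alb, against at most 6.38 CPM in any other library. Of 10 fibroblast markers 8 lay lower in DIZE (median log2 -0.21, and -0.05 without vehicle 1), with summed levels of 2839 to 4511 CPM in DIZE libraries and 3332 to 4902 CPM in vehicle libraries. Postn, the periostin gene of activated fibroblasts, had 41.8 to 63.3 CPM in DIZE libraries and 70.9 to 249 CPM in vehicle libraries (log2 -1.49, edgeR adjusted p = 0.0919). Vehicle 1 was the highest library for this gene and for Dpt, Lum, Dcn, Pdgfra and Tcf21. It was not the highest for Col1a1, Col1a2, Col3a1 or Gsn, and its Col1a1 level of 45.2 CPM was the lowest of all libraries. Of 10 endothelial markers 7 lay lower (median log2 -0.13), with sums of 1473 to 2160 CPM in DIZE and 1624 to 2411 CPM in vehicle. Macrophage marker sums ranged from 622 to 667 CPM in DIZE libraries and from 651 to 1200 CPM in vehicle libraries, and red cell marker sums from 8.95 to 78.4 CPM in DIZE and from 101 to 210 CPM in vehicle, and the part of these other cell types in the results was not tested. In RNA of heart tissue, fewer cells of a type and less RNA per cell cannot be told apart.

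The mitofusin genes were the members with the largest differences. Mfn2 had 1374, 1433, 1335 and 1343 CPM in DIZE 1 to 4, against 548.5, 1060, 1005 and 1093 CPM in vehicle 1 to 4. All 4 DIZE libraries lay above all 4 vehicle libraries, the DIZE libraries lay close together, and vehicle 1 was far below the other vehicle libraries. The mean was 1371 ± 44.5 CPM in DIZE and 926.5 ± 255 CPM in vehicle (SD, n = 4 each), a 1.48-fold ratio (log2 fold change 0.57 ± 0.19 SE, 95% interval 0.16 to 0.97), which did not pass edgeR's quasi-likelihood test after Benjamini-Hochberg adjustment over all genes (unadjusted p = 0.0109, adjusted p = 0.155). Without vehicle 1 the log2 value was 0.38 (edgeR adjusted p = 0.0771), with the groups still apart, and without vehicle 2 it was 0.64.

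Mfn1 had 551, 567, 545 and 523 CPM in DIZE 1 to 4, against 377, 459.7, 441 and 472 CPM in vehicle 1 to 4. Its groups did not overlap either, and the lowest DIZE library and the highest vehicle library were 523 and 472 CPM. The mean was 546.5 ± 17.9 CPM in DIZE and 437.5 ± 42 CPM in vehicle (SD, n = 4 each), a 1.25-fold ratio (log2 0.32 ± 0.10 SE, 95% interval 0.09 to 0.55, unadjusted p = 0.0102, edgeR adjusted p = 0.151). Without vehicle 1 its log2 value was 0.26 (adjusted p = 0.169). With DESeq2 in place of edgeR, Mfn1 passed (DESeq2 log2 0.32 ± 0.10, adjusted p = 0.0419) and Mfn2 did not (DESeq2 log2 0.57, adjusted p = 0.0759). DESeq2 called 4.45% of the genes it tested, 1.93% on the higher side, where edgeR called 0.0366%.

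A two-sided exact permutation test over the 8 libraries gave p = 0.0286 for Mfn1 and for Mfn2, the smallest value that 4 against 4 libraries allow, and 10 such tests were run, 1 for each gene. No other member had groups that did not overlap. These 2 of 10 stand beside 12.4% of all tested genes with groups apart, 7.17% with DIZE higher and 5.26% with DIZE lower. By edgeR's quasi-likelihood test with adjustment, 0 of the 10 genes passed, beside 5 of all 13648 genes, or 0.0366%, with 0.022% on the higher and 0.0147% on the lower side. At an unadjusted p under 0.05 there were 2 of 10, both higher, beside 19.4% of all genes of which 9.11% of all genes lay on the higher side and 10.3% on the lower. Ordered by p over the 13648 genes, Mfn1 stood at 919 and Mfn2 at 962.

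Opa1, the inner membrane partner of the mitofusins, did not share their pattern. It had 272, 322, 242 and 255 CPM in DIZE 1 to 4, against 235, 288, 332.5 and 311 CPM in vehicle 1 to 4, and the groups overlapped through most of their range. The mean was 273 ± 35 CPM in DIZE and 292 ± 41.7 CPM in vehicle (SD, n = 4 each), with log2 -0.10 (95% interval -0.40 to 0.20, edgeR adjusted p = 0.721).

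**Figure D1:**
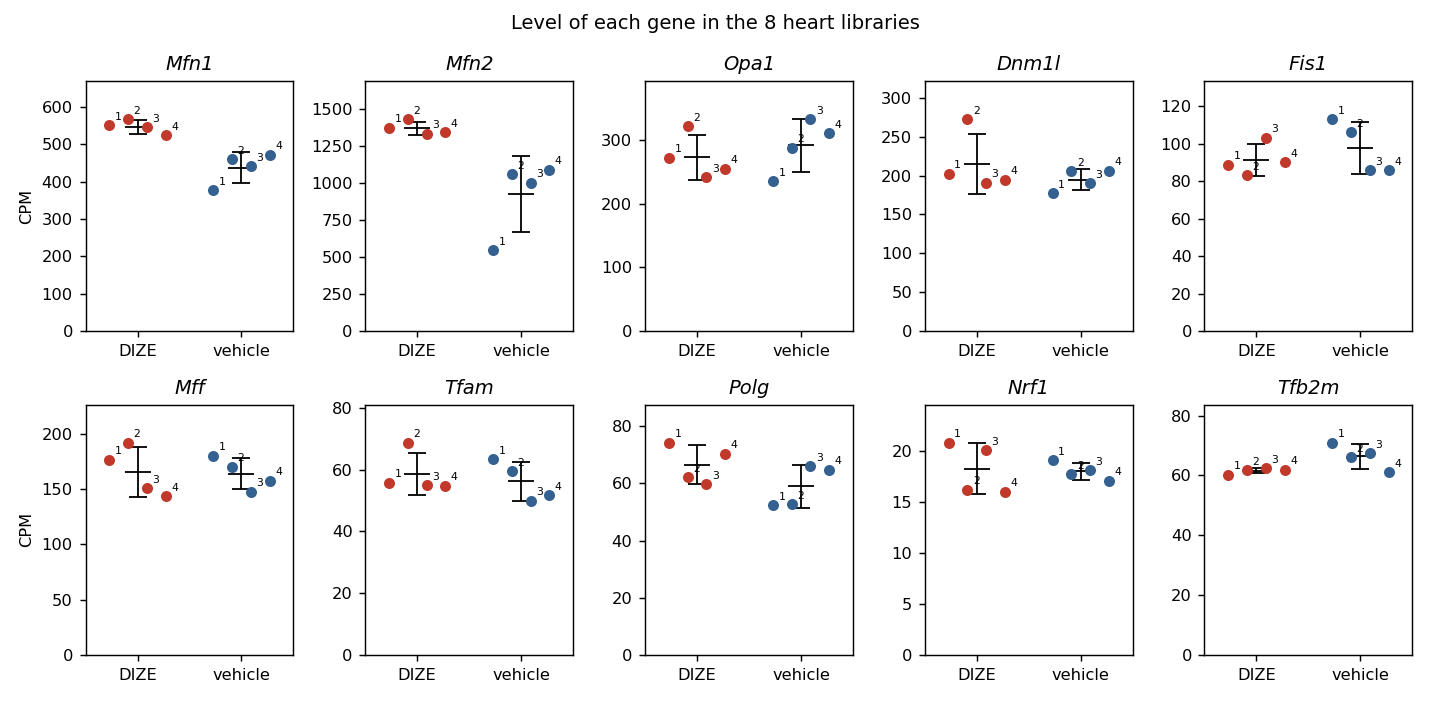
Level of each gene in CPM (vertical axis from 0) in the 4 DIZE libraries (red, left) and the 4 vehicle libraries (blue, right), numbered by library, with the mean and SD in black. For Mfn1 and Mfn2 all DIZE points lie above all vehicle points, and vehicle 1 is lowest; the other 8 genes overlap between the groups.

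Of the division genes, none separated the groups. Dnm1l had 202, 272, 191 and 195 CPM in DIZE 1 to 4, against 177, 206, 190.4 and 206 CPM in vehicle 1 to 4. DIZE 2 stood above all other libraries, and the other 3 DIZE libraries lay within the vehicle range. The log2 fold change of 0.14 (95% interval -0.15 to 0.43, edgeR adjusted p = 0.581) was 0.01 without DIZE 2. Mff, the gene of the main DRP1 adaptor, had 177, 192, 151 and 144 CPM in DIZE 1 to 4, against 180.3, 171, 148 and 158 CPM in vehicle 1 to 4. The ranges nearly coincided, and the log2 fold change was 0.01 (95% interval -0.26 to 0.29, edgeR adjusted p = 0.963). Fis1 had 89.0, 83.2, 103 and 90.3 CPM in DIZE 1 to 4, against 113, 106, 86.1 and 86.1 CPM in vehicle 1 to 4. Vehicle 1 and vehicle 2 were the highest of all libraries and the other vehicle libraries lay among the DIZE ones, with log2 -0.10 (95% interval -0.38 to 0.18, edgeR adjusted p = 0.701).

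The genes that maintain and transcribe mitochondrial DNA also overlapped between the groups. Tfam had 55.8, 68.7, 54.9 and 54.8 CPM in DIZE 1 to 4, against 63.5, 59.6, 50 and 51.8 CPM in vehicle 1 to 4. Again DIZE 2 was the highest library, and the other DIZE libraries lay between the vehicle ones (log2 0.06, 95% interval -0.22 to 0.33, edgeR adjusted p = 0.834). Tfb2m, the partner of TFAM at the mitochondrial promoters, had 60.3, 61.8, 62.5 and 62.0 CPM in DIZE 1 to 4, against 70.9, 66.1, 67.4 and 61.1 CPM in vehicle 1 to 4. Vehicle 1 to 3 lay above all DIZE libraries and vehicle 4 within them, and this gene had the smallest spread of the 10 in DIZE, with 61.7 ± 0.93 CPM against 66.4 ± 4.06 CPM in vehicle (SD, n = 4 each; log2 -0.11, 95% interval -0.32 to 0.11, edgeR adjusted p = 0.573).

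Polg had 74.2, 62.1, 59.8 and 70.4 CPM in DIZE 1 to 4, against 52.4, 52.8, 66.1 and 64.8 CPM in vehicle 1 to 4. Its vehicle libraries fell into a lower and a higher pair, and the DIZE libraries lay above the lower pair and on both sides of the higher one (log2 0.17, 95% interval -0.10 to 0.45, edgeR adjusted p = 0.462). Nrf1, the least abundant of the 10, had 20.8, 16.2, 20.1 and 16.0 CPM in DIZE 1 to 4, against 19.1, 17.7, 18.1 and 17.1 CPM in vehicle 1 to 4. The DIZE libraries lay on both sides of the vehicle ones (log2 0.02, 95% interval -0.27 to 0.31, edgeR adjusted p = 0.946). Over all 10 genes the median log2 fold change was 0.04, with 7 higher and 3 lower, beside a median of -0.01 over all tested genes, of which 48.2% were higher. The median size of a member's log2 fold change regardless of sign was 0.10, beside 0.20 over all tested genes.

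**Figure D2:**
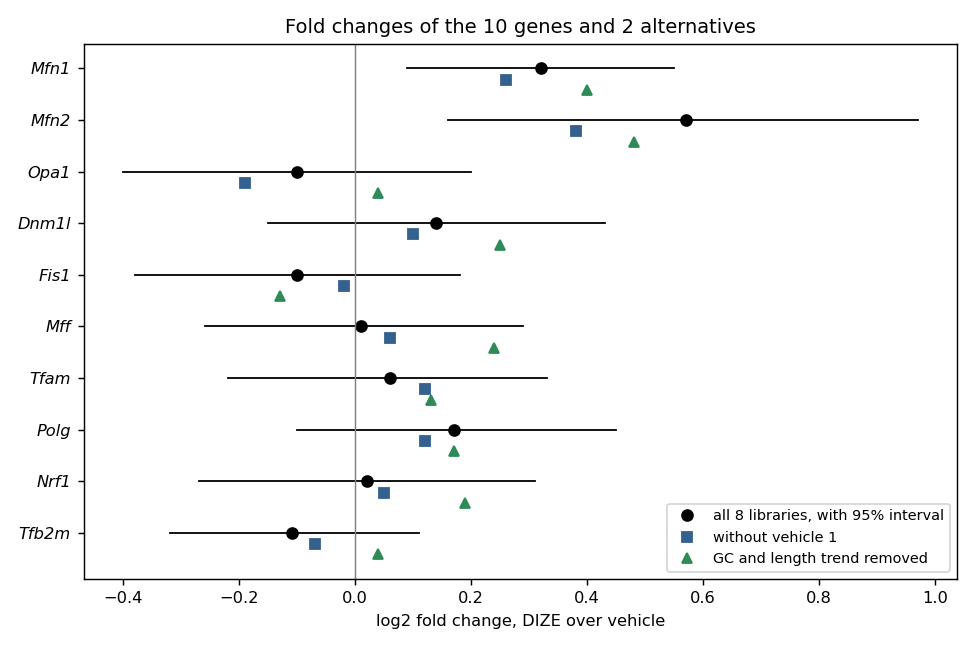
Log2 fold change of DIZE over vehicle for each gene (horizontal axis), with all 8 libraries and a 95% interval (black), without vehicle 1 (blue squares) and after a correction for GC content and length in each library (green triangles). Mfn1 and Mfn2 stay above 0 in all 3 versions, and Opa1 and Tfb2m lie on either side of 0.

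Counting error was smaller than the spread between libraries for most members. Counts per library ranged from 5345 to 13776 for Mfn2, where counting alone gives a coefficient of variation of 0.99%, against 3.24% observed in DIZE and 27.5% in vehicle. For Nrf1 they ranged from 123 to 199, where counting alone gives 7.88%, against 13.8% observed in DIZE and 4.71% in vehicle, so differences in Nrf1 of the size of its counting error were not detectable at this depth. For Tfb2m the 1.51% seen in DIZE lay under the 4.19% that counting alone gives.

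Divided by the length of the exon union of each gene, the levels spanned a wide range. Mfn2 was the most abundant member, with 264 ± 8.56 CPM per kb in DIZE and 178 ± 49.0 CPM per kb in vehicle (SD, n = 4 each). Mfn1 followed with 89.4 ± 2.93 CPM per kb in DIZE and 71.6 ± 6.87 CPM per kb in vehicle. Mfn2 lay above Mfn1 in all 8 libraries. Then came Fis1 with a mean of 55.2 CPM per kb over the 8 libraries, Dnm1l with 39.4, Opa1 with 35.8, Tfb2m with 22.8, Mff with 16.9, Tfam with 12.9, Polg with 5.85 and Nrf1 with 1.76 CPM per kb. The neighbouring pairs Mfn1 and Fis1, Fis1 and Dnm1l, and Dnm1l and Opa1 kept their order in 7 of 8 libraries and overlapped in range, and every later neighbour kept its order in all 8. Mff and Tfb2m changed places when the longest annotated transcript was used as length, which gave 42.1 CPM per kb for Mff and 26.1 CPM per kb for Tfb2m, so their order is not settled by these counts.

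**Figure D3:**
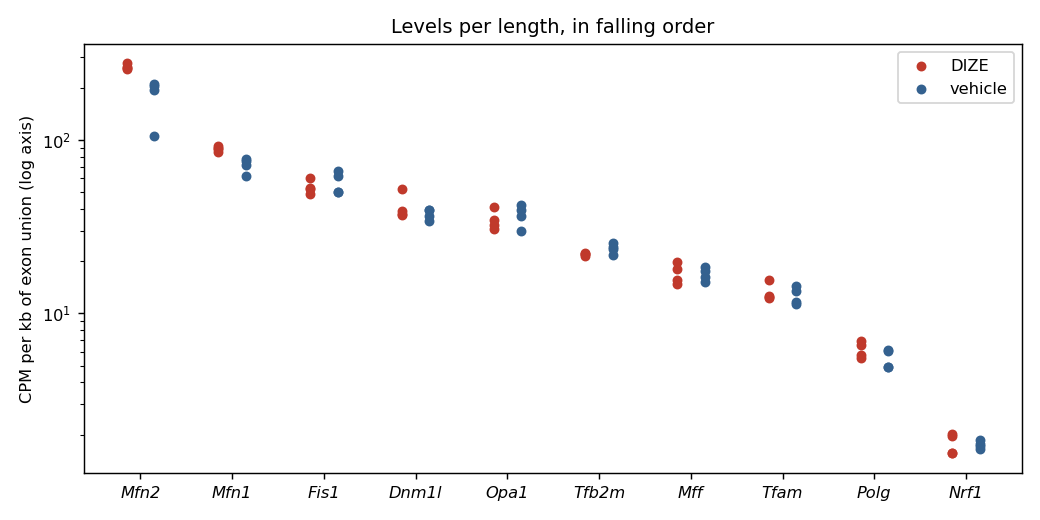
CPM per kb of exon union (vertical log axis) of the 10 genes in falling order of their mean, with the 4 DIZE libraries (red) left of the 4 vehicle libraries (blue) for each gene. Mfn2 is highest and Nrf1 lowest, and vehicle 1 is the low blue point of Mfn2.

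The balance of the mitofusin transcripts also differed by library. On the scale of CPM per kb, the ratio of Mfn2 to Mfn1 was 2.94, 2.98, 2.88 and 3.02 in DIZE 1 to 4, against 1.71, 2.71, 2.68 and 2.73 in vehicle 1 to 4. The DIZE libraries lay above all vehicle libraries, and vehicle 1 stood well below the rest. The sum of Mfn1, Mfn2 and Opa1 over the sum of Dnm1l, Fis1 and Mff was 3.57, 3.40, 3.35 and 3.59 in DIZE 1 to 4, against 1.66, 2.65, 3.02 and 3.08 in vehicle 1 to 4. The mitofusin genes carry most of that sum, so its direction follows from theirs. The other ratios computed overlapped between the groups, such as Mfn2 over Dnm1l, with 5.27 in DIZE 2 and 5.31 in vehicle 4. With vehicle 1 left out and a correction for GC content and length, Mfn1 and Mfn2 had the same log2 fold change, 0.33. No test is given for any ratio.

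The members did not move as 1 block across libraries. Relative to their own mean over 8 libraries, 5 members were lowest in vehicle 1 (Mfn1, Mfn2, Opa1, Dnm1l and Polg) while 2 were highest there (Fis1 and Tfb2m), and 5 were highest in DIZE 2 (Mfn1, Mfn2, Dnm1l, Mff and Tfam). The closest pair was Mff and Tfam, whose centred log2 CPM differed by a root mean square of 0.08 over the 8 libraries. Mfn2 in vehicle 1 was 1.01 log2 units below its mean (deviation -1.01), and Mfn1 had a deviation of -0.37. The mean deviation of the 12 cardiomyocyte markers was -0.41 in that library, which was the lowest for 7 of them and not for the rest. In the other 3 vehicle libraries the marker deviation ranged from -0.04 to 0.17, and in DIZE libraries from -0.01 to 0.18. Vehicle 2 had a marker deviation of 0.17, with -0.09 for Mfn1 and -0.06 for Mfn2. DIZE 2 had a marker deviation of 0.18, with 0.22 for Mfn1 and 0.37 for Mfn2. These are single libraries, from which the part of the marker level in the mitofusin difference cannot be told. With the marker level as a covariate, an alternative chosen after the data were examined, the log2 fold change was 0.24 for Mfn1 (edgeR adjusted p = 0.328) and 0.36 for Mfn2 (adjusted p = 0.288).

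**Figure D4:**
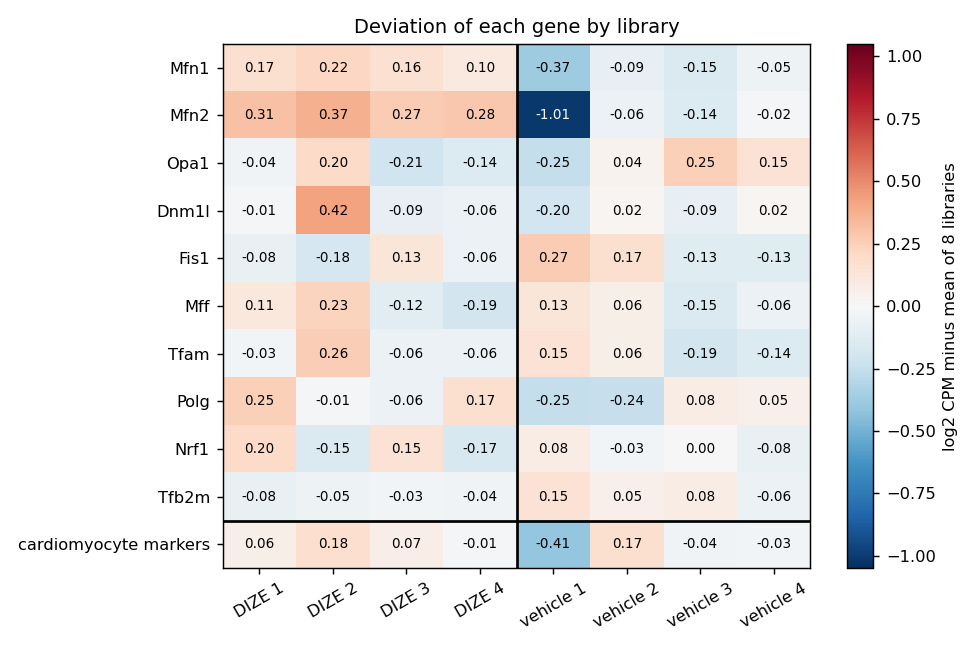
Deviation of log2 CPM from the mean of the 8 libraries (colour and printed value) for each gene and, in the bottom row, for the mean of 12 cardiomyocyte markers, with DIZE libraries left of the black line. Mfn1 and Mfn2 are positive in all DIZE and negative in all vehicle libraries, and vehicle 1 is lowest for Mfn2 and for the marker row.

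Base composition differed between libraries. Over all tested genes the median log2 fold change was -0.14 in genes of 44.8% GC or less (the lower quartile) and 0.18 in genes of 54.3% or more (the upper quartile), and vehicle 1 had the largest departure, with a median deviation of -0.30 in the upper group and 0.21 in the lower. DIZE 1, DIZE 3 and DIZE 4 had 0.10 to 0.15 in the upper group and -0.12 to -0.08 in the lower. DIZE 2 went against them, with -0.01 in the upper and 0.06 in the lower, close to vehicle 3 (-0.03 and 0.04) and vehicle 4 (-0.02 and 0.03), and vehicle 2 had 0.02 and -0.02. Mfn2 has 53.1% GC, Mfn1 45.9% and Mff, the lowest member, 37.3%. After a correction for GC content and length in each library, the log2 fold change was 0.48 for Mfn2 (edgeR adjusted p = 0.143), 0.40 for Mfn1 (adjusted p = 0.0982) and 0.24 for Mff (adjusted p = 0.276). Opa1 and Tfb2m turned to 0.04 each. With vehicle 1 left out as well, Mfn1 and Mfn2 both had 0.33 (adjusted p = 0.138 and 0.145).

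The wider set of fusion and fission genes had no member past the adjusted threshold. Of 14 tested partners of fission, 11 lay higher and 3 lower, with a median log2 fold change of 0.21 and 3 higher and 1 lower at an unadjusted p under 0.05, and 3 had all DIZE libraries above all vehicle libraries. Over all tested genes 9.11% were higher at that p and 7.17% had DIZE libraries above all vehicle ones. The median was 0.13 without vehicle 1 and also 0.13 without DIZE 2. Akap1, which encodes a kinase anchor of the outer membrane, had 268, 292, 283 and 288 CPM in DIZE 1 to 4, against 124, 203, 222 and 197 CPM in vehicle 1 to 4. Vehicle 1 was again the lowest library (log2 0.60 ± 0.16 SE, edgeR adjusted p = 0.114). Mul1, an outer membrane ubiquitin ligase gene, had 88.8 ± 4.22 CPM in DIZE and 68.1 ± 7.53 CPM in vehicle (adjusted p = 0.128), and Dnm2, a dynamin gene, had 131 ± 6.11 CPM in DIZE and 97.0 ± 20.4 CPM in vehicle (adjusted p = 0.169). The DRP1 adaptor genes Mief1 and Mief2 had log2 0.24 and 0.30, with overlapping groups. Senp5, which encodes a SUMO protease, had 24.5 ± 4.80 CPM in DIZE and 31.7 ± 3.42 CPM in vehicle.

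Of 12 tested partners of fusion, 7 lay higher and 5 lower (median log2 0.11, 5 higher at an unadjusted p under 0.05), 1 of them with groups apart. Among all tested genes, 9.11% were higher at that p and 7.17% had all DIZE libraries above all vehicle ones. The median of the fusion partners was 0.06 without DIZE 3 and 0.17 without vehicle 2. The gene with groups apart was Usp30, a deubiquitinase gene of the outer membrane, with 20.6, 19.9, 22.8 and 26.2 CPM in DIZE 1 to 4, against 15.6, 16.4, 18.2 and 17.3 CPM in vehicle 1 to 4 (log2 0.41 ± 0.13, edgeR adjusted p = 0.144). Phb2, a prohibitin gene, had 179 ± 15.5 CPM in DIZE and 136 ± 21.6 CPM in vehicle (adjusted p = 0.156). The genes of the proteases that cut OPA1 gave log2 0.05 for Oma1 and -0.12 for Yme1l1. Of 11 cristae-shape genes, 6 lay higher and 5 lower, 0 had an unadjusted p under 0.05 and none separated the groups, with the largest absolute log2 value at 0.27 (Dnajc11). Their median of 0.02 ranged from -0.04 without DIZE 2 to 0.07 without vehicle 1, and was 0.14 after the GC and length correction.

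Regulators of biogenesis differed in both directions, and again none of 15 passed. Esrra, which encodes the receptor ERR alpha, had 185.1, 175, 180.3 and 161 CPM in DIZE 1 to 4, against 109, 139.5, 134 and 124 CPM in vehicle 1 to 4. The groups lay apart (log2 0.47 ± 0.11 SE, edgeR adjusted p = 0.0955). Esrrb, a related receptor gene, had 78.6 ± 10.6 CPM in DIZE and 42.3 ± 14.6 CPM in vehicle (log2 0.90 ± 0.24, adjusted p = 0.11). On the other side, Gabpb2, which encodes a subunit of the GABP factor, had 27.6, 25.9, 26.2 and 27.6 CPM in DIZE 1 to 4, against 49.8, 33.9, 51.5 and 33.9 CPM in vehicle 1 to 4, again with groups apart (log2 -0.65 ± 0.16, adjusted p = 0.0971). Ppara, a receptor gene of fatty acid use, also had all DIZE libraries below all vehicle libraries (log2 -1.29, adjusted p = 0.0993). Gabpa, the DNA-binding subunit of GABP, had 78.4 ± 5.77 CPM in DIZE and 78.6 ± 4.93 CPM in vehicle. Ppargc1a, the gene of the coactivator PGC-1 alpha, ranged from 135 to 288 CPM in DIZE and from 168 to 239 CPM in vehicle (log2 0.06 ± 0.22), so its spread in DIZE was wider than any difference. Ppargc1b had log2 -0.24. Of the 15 genes, 5 lay higher and 10 lower. At an unadjusted p under 0.05 there were 2 higher and 3 lower, beside 9.11% and 10.3% of all tested genes. On each side 2 had groups apart, beside 7.17% of all tested genes with DIZE higher and 5.26% with DIZE lower. The median log2 of the 15 was -0.05. This median ranged from -0.14 without DIZE 2 to -0.01 without DIZE 3, and was 0.03 after the GC and length correction.

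Genes that work beside Polg, Tfam and Tfb2m mostly overlapped between groups. Of 16 genes of mitochondrial DNA replication and nucleotide supply, 8 lay higher and 8 lower, with 0 past the adjusted threshold. At an unadjusted p under 0.05 there was 1 in each direction, beside 9.11% of all tested genes higher and 10.3% lower. All DIZE libraries lay above all vehicle ones for 2, beside 7.17% of all tested genes. The median of 0 ranged from -0.12 without vehicle 4 to 0.07 without DIZE 1, and was 0.07 after the GC and length correction. Twnk, the gene of the replicative helicase, had 46.0, 45.0, 45.0 and 45.8 CPM in DIZE 1 to 4, against 28.1, 37.2, 42 and 35.2 CPM in vehicle 1 to 4. The groups lay apart and the DIZE libraries were nearly equal (log2 0.35 ± 0.13, edgeR adjusted p = 0.178). Mgme1, an exonuclease gene, had 28.4 ± 2.20 CPM in DIZE and 24.4 ± 0.84 CPM in vehicle, also with groups apart (adjusted p = 0.299). Slc25a33, a pyrimidine nucleotide carrier gene, had 12.7 ± 1.14 CPM in DIZE and 20.2 ± 5.99 CPM in vehicle (log2 -0.66, adjusted p = 0.138), Polg2, the accessory subunit of the polymerase, log2 -0.22, and Ssbp1, its single-strand binding protein, -0.08. Of 16 tested genes of mitochondrial transcription and RNA handling, 8 lay higher and 8 lower, 0 had an unadjusted p under 0.05 and none separated the groups. The median of 0.03 ranged from -0.01 without vehicle 3 to 0.10 without vehicle 2, and was 0.13 after the GC and length correction. Polrmt, the mitochondrial RNA polymerase gene, had 63.1, 58.8, 55.8 and 52.2 CPM in DIZE 1 to 4, against 18.3, 58.7, 42.6 and 46.1 CPM in vehicle 1 to 4. Vehicle 1 was lowest and vehicle 2 lay among the DIZE libraries. Tfb1m, the paralogue of Tfb2m that acts as a ribosomal RNA methyltransferase, had log2 -0.17.

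The reads assigned to the protein genes of mitochondrial DNA itself differed widely in number between genes in these poly(A)-selected libraries. How far these counts follow the levels of the transcripts was not tested. Their DIZE means ran from 23.2 CPM for mt-Atp8 to 19774 CPM for mt-Co1. All 13 protein genes lay lower in DIZE (median log2 -0.11), with none past the threshold. At an unadjusted p under 0.05 there was 1, beside 10.3% of all tested genes on the lower side. The median was -0.06 without vehicle 3 and -0.19 without vehicle 4, and it turned to 0.18 with the GC and length correction. The lowest values were log2 -0.29 for mt-Nd3 (unadjusted p = 0.0424, edgeR adjusted p = 0.241), -0.26 for mt-Nd4l and -0.25 for mt-Co3. These came from genes with few assigned reads next to mt-Co1, with DIZE means of 52.8, 56.5 and 310 CPM in that order. For mt-Co1, a cytochrome oxidase subunit, the mean was 19774 ± 2277 CPM in DIZE and 20041 ± 2309 CPM in vehicle, for mt-Cytb log2 was -0.10 and for mt-Nd6 -0.06.

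**Figure D5:**
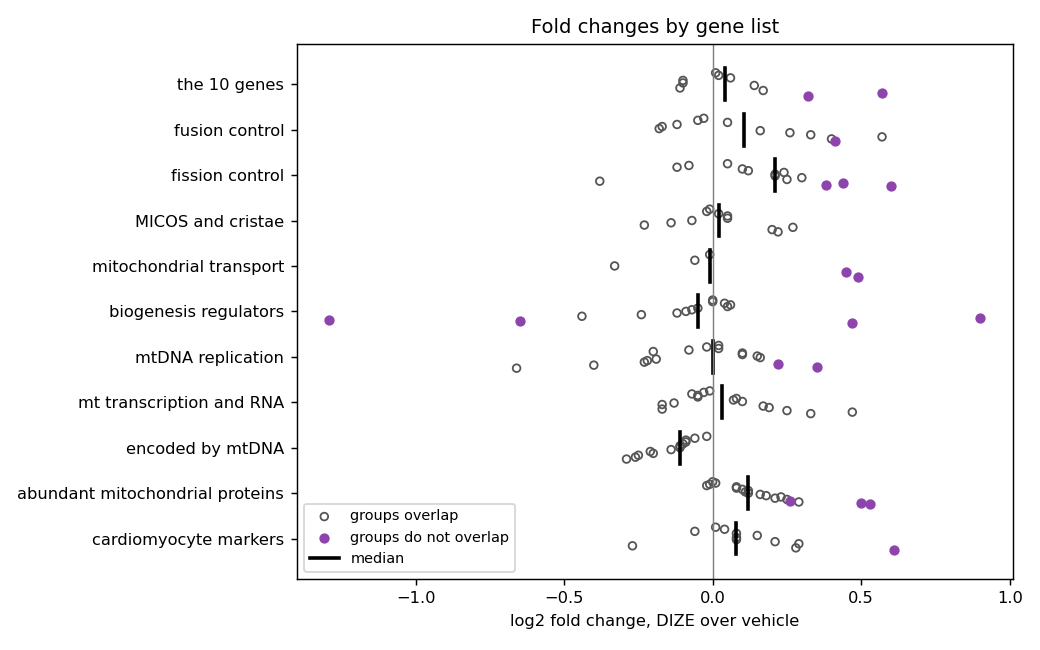
Log2 fold change of DIZE over vehicle (horizontal axis) of every tested gene in each list, with filled purple points where the 4 DIZE and 4 vehicle libraries do not overlap, open points where they do, and a black bar at the median of the list. Mfn1 and Mfn2 are the filled points of the top row, and the biogenesis regulators have filled points on both sides of 0.

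Among 9308 other tested genes with at least 10 CPM, the genes nearest in pattern to each member were sought by the root mean square difference of centred log2 CPM over the 8 libraries. For Mfn2 these were Mllt6 (0.023) and Hdac6 (0.026), where the median gene differed by 0.447. For Mfn1 they were Exoc7 (0.042) and Rrp1 (0.044), beside a median of 0.264. For Tfam they were Tefm (0.039) and Zc2hc1a (0.040), for Fis1 Rdh14 (0.020) and Rp9 (0.042), and for Tfb2m Eif2b1 (0.042) and Tars (0.043). For the other 5 members the nearest gene differed by 0.039 to 0.061. The centred values of Mfn2 itself had a root mean square of 0.424, and its largest deviation was -1.01, in vehicle 1. Nearness to Mfn2 therefore rests largely on that library. For Tfb2m the same root mean square was 0.076, beside the 0.042 of its nearest gene.

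The positions on GRCm38 are as follows. Mfn1 (ENSMUSG00000027668) lies on chromosome 3 from 32529465 to 32579239 and Mfn2 (ENSMUSG00000029020) on chromosome 4 from 147873599 to 147904704. Opa1 (ENSMUSG00000038084) lies on chromosome 16 from 29579334 to 29654884, and Dnm1l (ENSMUSG00000022789) on the same chromosome from 16312230 to 16358959. Fis1 (ENSMUSG00000019054) lies on chromosome 5 from 136953275 to 136966234. Mff (ENSMUSG00000026150) lies on chromosome 1 from 82724890 to 82752394, as does Tfb2m (ENSMUSG00000026492), from 179528055 to 179546267. Tfam (ENSMUSG00000003923) lies on chromosome 10 from 71225464 to 71238280, Polg (ENSMUSG00000039176) on chromosome 7 from 79446231 to 79466362, and Nrf1 (ENSMUSG00000058440) on chromosome 6 from 30047988 to 30153458. Of the 10 genes, 6 overlap another annotated gene and 3 share exon bases with one (Dnm1l, Mff and Polg), and the most abundant of these overlapping genes had a mean of 0.919 CPM.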

How the data were processed

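The deposited table holds raw read counts per Ensembl gene, whole numbers that the authors had not normalized, in 8 columns tied to samples by their descriptions. STAR 2.7.3 and HTSeq 0.6.1p1 were used on mm10, with edgeR and R 4.1, per the submitters' processing notes. Counting by strand is not given in the sources used here. Symbols, exon lengths and GC content came from GENCODE M21 (GRCm38), and 55141 of 55487 IDs had a symbol. No pair of libraries agreed within sampling noise (lowest chi-square 5.06 per degree of freedom).

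Low genes were dropped with filterByExpr at a minimum count of 10 and a total of 15, and the rest tested by edgeR 4.0.16 in R 4.3.3 (quasi-likelihood, robust, two-sided, TMM, no covariate), with Benjamini-Hochberg adjustment over 13648 genes and a threshold of 0.05. Fold changes are DIZE over vehicle. Log2 CPM for deviations and permutation tests used an offset of 0.5. The fit was checked on simulated counts.

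The members, lists and tests were chosen with earlier results of these data known. All members are named, of each list up to 4 genes with the smallest p plus 16 fixed genes where tested, and up to 2 nearest genes. Alternatives were DESeq2 1.42.0, limma-voom (limma 3.58.1), other scalings and filters, a GC and length offset, blocks by title form and title number, and leaving out each library.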

Additional observations from a re-analysis of the deposited data

Results flagged for a closer look

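In each group of 4 libraries the highest or lowest value was compared with the rest by the ratio of its gap to the whole range of the group (Dixon's test), for the 10 genes in 20 groups. Chance flags about 1 in 20 groups, and 3 passed. Mfn2 in vehicle 1 had 548.5 CPM, with the remaining vehicle libraries between 1005 and 1093 CPM (ratio 0.838). Dnm1l was at 272.4 CPM in DIZE 2, against 190.8 to 202.2 CPM in the other DIZE libraries (ratio 0.86). Tfam was at 68.7 CPM in DIZE 2, against 54.8 to 55.8 CPM in the other DIZE libraries (ratio 0.928).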

How the results depend on the processing

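With edgeR and 8 libraries 5 genes passed, 3 higher and 2 lower. The count was 606 with DESeq2 (263 higher, 343 lower), 386 with no filter on low counts (160 and 226), 43 after the GC and length correction (24 and 19) and 9 with title form as a block (5 and 4). It was 0 with library totals (0 and 0) and 0 with the cardiomyocyte marker level as a covariate (0 and 0), with 2753 and 1710 genes at an unadjusted p under 0.05. With limma-voom 1 gene was lower, and with vehicle 1 left out and the trend removed 4 were. Leaving out 1 library gave 0 to 240 genes (0 to 44 higher, 0 to 196 lower), the most without vehicle 2. The causes were not tested.

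Of the members, 0 passed in every edgeR and limma-voom alternative run, and 1 passed with DESeq2, Mfn1. Mfn1 stayed between 0.24 and 0.42 and Mfn2 between 0.33 and 0.72 over 20 alternatives each. Signs near 0 turned: with the trend removed Opa1 and Tfb2m had 0.04, and with library totals Mff had -0.06, Tfam -0.02 and Nrf1 -0.05. Left-out libraries moved Mff between -0.06 and 0.08, Tfam between -0.03 and 0.12 and Nrf1 between -0.04 and 0.09.

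The number in the sample titles, used as a replicate block, left 0 genes past the threshold (0 higher, 0 lower; 1938 at an unadjusted p under 0.05), and 1 (1 higher, 0 lower) when the GC and length correction was added. Mfn1 then had 0.37 and Mfn2 0.72, Nrf1 -0.06, and with the trend removed as well Opa1 0.11 and Tfb2m 0.02. Deviations of libraries that share a number correlated between -0.14 and 0.02 across genes, and those of other pairs between -0.28 and 0.24. These values cannot decide whether numbers pair the samples, because number 4 recurs within each group. DIZE 3 (number 3) and vehicle 4 (number 6) share their number with no other library.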

Other observations

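Of 5 genes that move mitochondria along microtubules, 2 lay higher and 3 lower in DIZE, with a median log2 of -0.01 and 0 past the threshold by edgeR. The 2 higher genes had all DIZE libraries above all vehicle ones, beside 7.17% of all tested genes. Both had an unadjusted p under 0.05 by edgeR, beside 9.11% of all tested genes on the higher side. Trak1, which encodes a motor adaptor, had 539, 548, 507 and 499 CPM in DIZE 1 to 4, against 238, 460.2, 395 and 441 CPM in vehicle 1 to 4 (log2 0.45, edgeR adjusted p = 0.208). Rhot2, which encodes the outer membrane GTPase that binds such adaptors, had 90.3 ± 9.77 CPM in DIZE and 64.4 ± 12.9 CPM in vehicle (SD, n = 4 each; log2 0.49, adjusted p = 0.146). The other 3 did not separate the groups, with log2 -0.33 for Kif5b, a kinesin motor gene, -0.06 for Trak2 and -0.01 for Rhot1, the last named after its value was seen. Whether paralogues differ from each other was not tested.

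Of 19 nuclear genes of abundant mitochondrial proteins, 17 lay higher and 2 lower, with 0 past the threshold by edgeR, 5 higher at an unadjusted p under 0.05, beside 9.11% of all tested genes, and a median log2 of 0.12. The median was 0.13 without vehicle 1, 0.08 without DIZE 2, 0.17 without vehicle 2 and 0.22 with the GC and length correction. Cs, the citrate synthase gene often used as a measure of mitochondrial content, had 2381, 2747.5, 2535 and 2336 CPM in DIZE 1 to 4, against 1241, 2151, 1664 and 1881 CPM in vehicle 1 to 4, with groups apart (log2 0.53, adjusted p = 0.128). Tomm40, the import pore gene, had 82.1 ± 7.01 CPM in DIZE and 58.2 ± 12.5 CPM in vehicle, and Vdac1, a channel of the outer membrane, 1273 ± 54.7 CPM in DIZE and 1062 ± 107 CPM in vehicle. These 3 genes had all DIZE libraries above all vehicle libraries, beside 7.17% of all tested genes. Vehicle 1 was the lowest library for each of them.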
